A study of Mus musculus with 10 samples.

Results

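The annexins of the mouse liver were examined as genes of membrane repair and injury, before and after acute damage by carbon tetrachloride (CCl4) and with or without editing of Bap1 in hepatocytes. The 10 members were taken by symbol from the gene count table: Anxa1, Anxa2, Anxa3, Anxa4, Anxa5, Anxa6, Anxa7, Anxa10, Anxa11 and Anxa13, out of 55291 genes in all. Liver RNA of 10 mice, all females of 16 to 20 weeks, was sequenced in the groups NTC-Veh (n = 2), NTC-CCl4 (n = 3), sgBap1-Veh (n = 2) and sgBap1-CCl4 (n = 3). Every mouse carried the Cas9 Lox-Stop-Lox allele, in which Cas9 stays silent until Cre removes a stop, and every mouse received by the tail vein an AAV8 virus with a guide RNA and Cre under the hepatocyte promoter TBG. The guide was a non-targeting control (NTC) or one against Bap1 (sgBap1), which encodes a nuclear deubiquitinase, so that editing was directed at hepatocytes while the RNA came from all cells of the tissue. After 10 days the mice received CCl4, diluted 1 part to 9 in olive oil, or olive oil alone (Veh), and the livers were taken 48 hours later.

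Annexins are cytosolic proteins that bind negatively charged phospholipids when calcium rises. When a plasma membrane tears, calcium enters and annexins gather at the wound, where they crosslink membrane, help to seal or shed the damaged part and recruit other repair proteins. ANXA2 forms a heterotetramer with S100A10, ANXA1 binds S100A11 and also acts outside the cell as an anti-inflammatory ligand of formyl peptide receptors, ANXA5 forms a lattice on exposed phosphatidylserine, and ANXA6 carries a duplicated core that can bridge membranes. CCl4 is turned by Cyp2e1 of the hepatocytes around the central vein into a radical that attacks membrane lipids, and the necrosis that follows brings in phagocytes and starts regeneration.

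The libraries held 33047900 to 52199900 estimated counts each, and 3 counts corresponded to 0.0511 to 0.112 CPM, a gene's count relative to the TMM-normalised total of its library. Bap1, the edited gene, was at 34.8 CPM in both NTC-Veh livers against 17.5 and 19.5 in sgBap1-Veh, and at 30.1, 31.5 and 29.5 in NTC-CCl4 against 17.0, 21.8 and 19.1 in sgBap1-CCl4, so that no sgBap1 liver reached an NTC liver (log2 -0.91 with vehicle, adjusted p = 0.0208, and -0.65 with CCl4, adjusted p = 0.0295, by edgeR's quasi-likelihood test). Neither call of Bap1 held in every fit: with 1 liver left out the log2 value was -0.99 to -0.84 with vehicle (adjusted p 0.00919 to 0.120, lost without any 1 of the 4 vehicle livers) and -0.75 to -0.57 with CCl4 (adjusted p 0.0287 to 0.147, lost without any NTC liver or sgBap1-CCl4 replicate 1), and with library size alone the adjusted p was 0.0510 and 0.0646. The hepatocyte marker Alb was at 55036 CPM or more in every liver. One library stood apart: sgBap1-CCl4 replicate 2 held 36.4 CPM of Adipoq and 34.5 CPM of Plin1, which are adipocyte genes and reached at most 0.0425 and 0.0188 CPM in the other 9 livers. It also held the highest Anxa1, Anxa2 and Anxa3. Some values that rest on it are given with and without it, and the others only with it. The part of the adipocyte markers in those values was not tested. The labels give no litter or day for the mice. The p-values set group differences against the spread between these livers, estimated in 1 model of the 4 groups.

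In the vehicle livers the family was led by Anxa6, Anxa7, Anxa5 and Anxa4. Levels were compared between genes as CPM per kilobase of the longest transcript. In NTC-Veh livers (n = 2) the level was 48.9 ± 9.58 (SD) for Anxa6, 35.6 ± 1.49 for Anxa7, 34.9 ± 1.46 for Anxa5, 28.9 ± 1.22 for Anxa4 and 19.7 ± 0.57 for Anxa11. The ranges of Anxa7 and Anxa5 overlapped, while Anxa6, Anxa4 and Anxa11 were each separate from their neighbours. A lower tier held Anxa2 at 7.29 ± 0.41, Anxa3 at 2.65 ± 0.65, Anxa1 at 2.09 ± 0.72 and Anxa13 at 0.446 ± 0.022, in which the ranges of Anxa3 and Anxa1 overlapped. For Anxa13 the annotation held no coding transcript, and its longest transcript was used. Anxa10, an annexin of the stomach, had 0 counts in 9 livers and 2 counts in the other, and was not tested. The order in sgBap1-Veh livers was the same from Anxa6 to Anxa10. With the length of all merged exons in place of the longest transcript, Anxa5 moved above Anxa7 and Anxa1 above Anxa3 in NTC-Veh.

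After CCl4 the order changed. Anxa5 led with 141 ± 4.94 in NTC-CCl4 (n = 3), followed by Anxa2 with 119.6 ± 15.7, whose highest liver (136.4) overlapped the lowest Anxa5 liver (135.7). Anxa4 (47.8 ± 1.56), Anxa7 (46.9 ± 2.61) and Anxa6 (42.4 ± 1.14) formed a middle tier in which Anxa4 and Anxa7 overlapped. Anxa3 reached 19.0 ± 2.11, above Anxa11 at 15.4 ± 0.79, and Anxa1 reached 10.7 ± 1.11. In sgBap1-CCl4 (n = 3) Anxa5 was at 154 ± 15.5 and Anxa2 at 149 ± 27.3, again with overlap. With merged exon lengths in NTC-CCl4 Anxa5 and Anxa2 still led, but far apart, at means of 137.4 and 46.4. The lowest Anxa5 liver (132.2) was then well above the highest Anxa2 liver (52.9), and in sgBap1-CCl4 the 2 genes did not overlap either. The closeness of Anxa5 and Anxa2 thus rests on the length of the longest transcript. With merged exon lengths in NTC-CCl4 Anxa6 was next and Anxa11 stood above Anxa3. Summed over the 10 genes, the level went from 170.0 and 191 in NTC-Veh to 418, 446 and 466 in NTC-CCl4, and with edited Bap1 from 203 and 189 with vehicle to 468, 523 and 486 with CCl4. The share of Anxa2 in that sum was 4.04% ± 0.10 in NTC-Veh and 26.9% ± 2.13 in NTC-CCl4, and that of Anxa6 was 27.0% ± 3.09 and 9.58% ± 0.59. These shares do not depend on how libraries are scaled, though they depend on the transcript lengths.

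**Figure D1:**
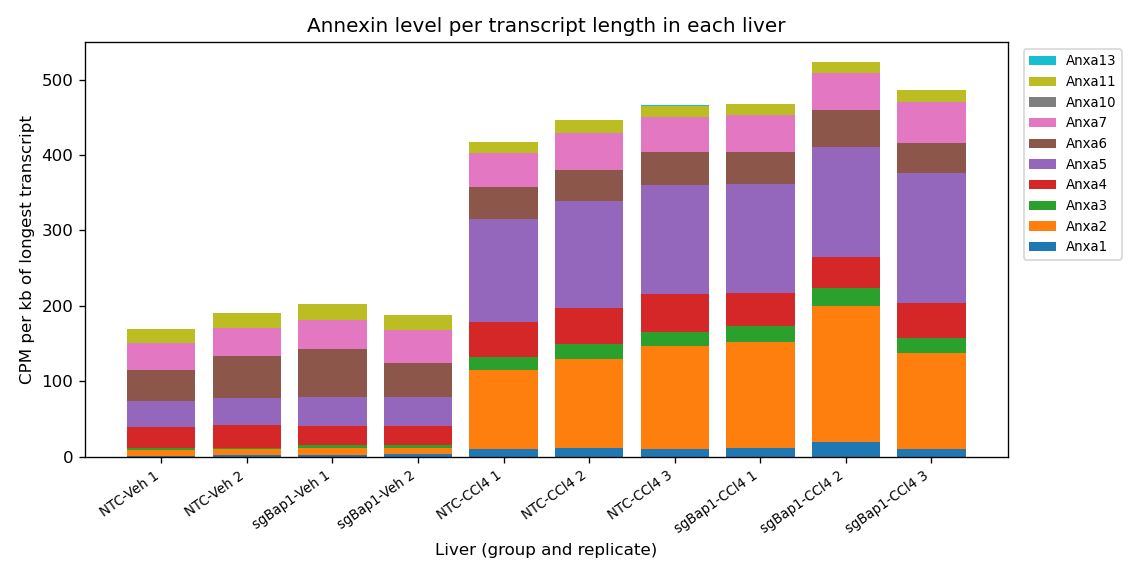
Level of each annexin in each of the 10 livers, as CPM per kilobase of the longest transcript, stacked from 0. The sum lies between 170.0 and 203 in the 4 vehicle livers and between 418 and 523 in the 6 CCl4 livers, and the Anxa2 and Anxa5 segments take up most of the added height.

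The first comparison asked how the family responds to CCl4 in livers with the control guide. Of the 10 members 9 passed the filter on low counts. Among these 9, Anxa2, Anxa3, Anxa1, Anxa5, Anxa4 and Anxa7 rose and Anxa11 fell in NTC-CCl4 against NTC-Veh, and Anxa6 and Anxa13 did not pass (edgeR's quasi-likelihood test, adjusted p under 0.05 by Benjamini-Hochberg over 17015 tested genes). The background was high, since 53.9% of all tested genes were called, 27.4% higher and 26.6% lower. The median log2 fold change was 0.73 over the 9 annexins and 0.03 over all tested genes. The split depends on scaling: with libraries scaled by size alone the median of all genes moved to 0.50, calls over all genes became 8500 higher and 2061 lower in place of 4659 and 4519, and the annexins became 6 higher and 0 lower. In bulk tissue more cells of a type and more RNA per cell cannot be told apart.

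The 4 annexins that rose most were Anxa2, Anxa3, Anxa1 and Anxa5. Anxa2 (chr9:69453620-69491795, + strand, GRCm38) was at 10.1 and 10.97 CPM in NTC-Veh and at 152, 170 and 197 CPM in NTC-CCl4. The lowest treated liver was thus far above both controls, and the fold was 16.4 (log2 4.04, SE 0.18, adjusted p = 6.64e-07). Its log2 fold change ranked 365 from the highest among 17015 tested genes.
Anxa3 (chr5:96793339-96845966, + strand), which is abundant in neutrophils, stood at 4.96 and 3.49 CPM in NTC-Veh and at 26.8, 33.5 and 30.7 CPM in NTC-CCl4. Its fold was 7.17 (log2 2.84, SE 0.17, adjusted p = 1.87e-06), again with no overlap of the groups.
Anxa1 (chr19:20373428-20390944, - strand), the ligand of formyl peptide receptors, went from 2.64 and 4.35 CPM to 17.0, 20.1 and 16.8 CPM. The log2 fold change was 2.36 with the widest error of these 4 genes (SE 0.33, adjusted p = 0.000300).
Anxa5 (chr3:36448923-36475894, - strand) was measured at 58.6 and 62.1 CPM in NTC-Veh and at 235, 245 and 252 CPM in NTC-CCl4. It rose 4.04-fold (log2 2.02, SE 0.11, adjusted p = 9.96e-07) and replicates of each group lay close together.

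Anxa4 and Anxa7 rose less. Anxa4 (chr6:86736840-86793584, - strand), which is abundant in secretory and biliary epithelium, was at 57.0 and 60.5 CPM in NTC-Veh and at 95.8, 94.8 and 101 CPM in NTC-CCl4 (log2 0.73, SE 0.084, adjusted p = 5.07e-05). Anxa7 (chr14:20455260-20480133, - strand), which binds the calcium-binding protein sorcin, was at 100.4 and 107 CPM and then at 130.0, 145 and 134 CPM (log2 0.40, SE 0.098, adjusted p = 0.00593). Neither pair of groups overlapped, which held for 71.7% of all tested genes in this comparison. Without NTC-Veh replicate 1 the adjusted p of Anxa7 was 0.0528.

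Anxa11 and Anxa6 went the other way or stayed within their spread, and for both the sign rests on the scaling. Anxa11 (chr14:25842156-25886804, + strand), which links RNA granules to lysosomes, was at 46.1 and 48.0 CPM in NTC-Veh and at 35.3, 38.9 and 36.1 CPM in NTC-CCl4, which is -0.36 on the log2 scale (SE 0.081, adjusted p = 0.00397) and turned to 0.12 (adjusted p = 0.294) with library size alone. Of its 50-base stretches 14.6% also occur in Gm2260 or Gm2274, so its counts are uncertain where reads could be split. Anxa6 (chr11:54979108-55033445, - strand) was at 105 and 139 CPM in NTC-Veh and at 107, 102 and 107 CPM in NTC-CCl4. Its log2 fold change was -0.21 (approximate 95% interval -0.55 to 0.14, adjusted p = 0.289), and 0.26 with library size alone. The groups overlapped, and 1 control liver lay above all 3 treated livers.
Ratios within a liver avoid the scaling. The count of Anxa2 was 0.220 and 0.229 times that of Anxa11 in NTC-Veh and 4.32, 4.36 and 5.46 times in NTC-CCl4, and the count of Anxa5 was 0.558 and 0.448 times that of Anxa6 and then 2.20, 2.40 and 2.34 times. The ratio of Anxa7 to Anxa11 was 2.18 and 2.22 in NTC-Veh and 3.68, 3.72 and 3.71 in NTC-CCl4.

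Anxa13 was low and Anxa10 was at or below the limit of detection. Anxa13 (chr15:58341471-58389244, - strand), an annexin of gut and kidney epithelium, had 16 to 34 counts per liver, which is 0.342 to 0.727 CPM, and the log2 fold change in NTC was -0.02 (approximate 95% interval -0.75 to 0.70, adjusted p = 0.957), with 0.45 under library size alone. In sgBap1 it was -0.53 (SE 0.32, adjusted p = 0.183), with 0.727 and 0.599 CPM in sgBap1-Veh and 0.579, 0.342 and 0.468 CPM in sgBap1-CCl4. Anxa10 (chr8:62057042-62123150, - strand) was seen only as 2 counts in sgBap1-CCl4 replicate 2, and in the other 9 livers a count of 0 allows up to the CPM of 3 counts given above. These floors cover counting error only.

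**Figure D2:**
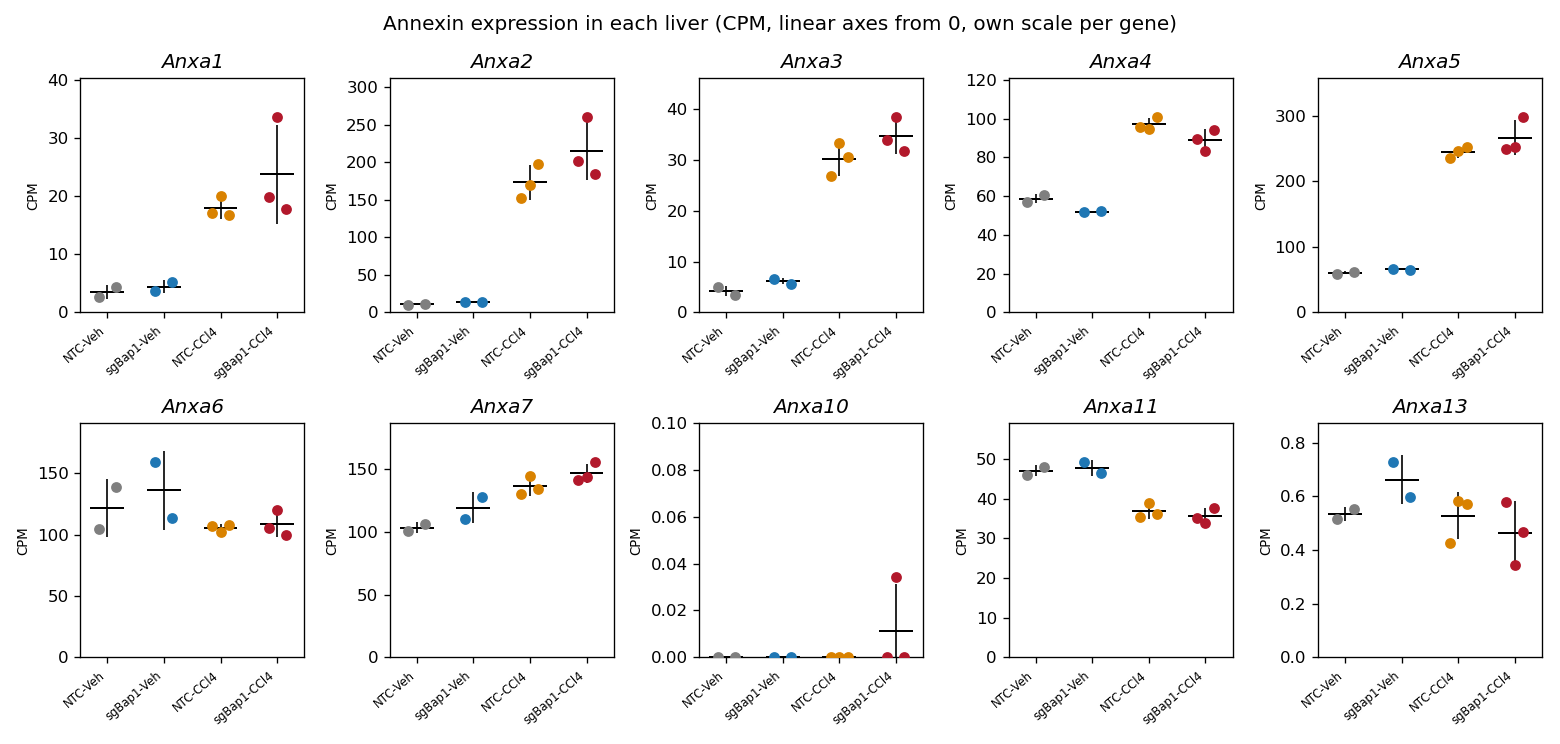
CPM of the 10 annexins in each liver, one panel per gene with a linear axis from 0, points for livers, horizontal bars for group means and vertical bars for the SD (n = 2, 2, 3 and 3). For Anxa1, Anxa2, Anxa3, Anxa4, Anxa5 and Anxa7 every CCl4 liver lies above every vehicle liver, for Anxa11 every CCl4 liver lies below, and the points of Anxa6 overlap.

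The sequences before the start sites of 4 members that differ in response are shown so that the member with the largest rise, the receptor ligand, the member with the highest level after CCl4 and the member that fell can be set side by side. They are the 250 bases upstream of the RefSeq start (GRCm38.p6, 5′ to 3′ along the gene), and capitals mark matches on either strand to 4 motifs. The letters searched were TGANTCA for the site of AP-1, a dimer of Fos and Jun proteins, TATAAA for the TATA box that places transcription starts, GGGCGG for the GC box bound by Sp factors, and GGAATG for TEAD factors, the partners of Yap. These motifs do not overlap in the windows shown. The GENCODE positions given above can begin further upstream than the RefSeq start. By them the Anxa1 window lies inside the gene, and the Anxa2 and Anxa5 windows lie partly inside theirs.
Anxa2, chr9:69453433-69453682, + strand: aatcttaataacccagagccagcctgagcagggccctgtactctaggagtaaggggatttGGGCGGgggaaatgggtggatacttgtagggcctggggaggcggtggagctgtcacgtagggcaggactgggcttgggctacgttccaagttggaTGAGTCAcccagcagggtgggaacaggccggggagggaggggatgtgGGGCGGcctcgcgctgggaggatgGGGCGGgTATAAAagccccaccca
Anxa1, chr19:20390672-20390921, - strand: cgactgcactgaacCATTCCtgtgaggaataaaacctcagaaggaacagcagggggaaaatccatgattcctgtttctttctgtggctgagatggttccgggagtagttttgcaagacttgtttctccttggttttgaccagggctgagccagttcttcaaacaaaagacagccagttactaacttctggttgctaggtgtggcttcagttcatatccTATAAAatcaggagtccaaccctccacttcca
Anxa5, chr3:36475888-36476137, - strand: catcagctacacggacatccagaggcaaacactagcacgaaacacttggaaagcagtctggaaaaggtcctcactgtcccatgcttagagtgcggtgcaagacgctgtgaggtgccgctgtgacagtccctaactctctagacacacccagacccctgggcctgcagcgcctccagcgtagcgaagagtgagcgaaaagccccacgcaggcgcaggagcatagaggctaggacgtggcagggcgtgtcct
Anxa11, chr14:25841905-25842154, + strand: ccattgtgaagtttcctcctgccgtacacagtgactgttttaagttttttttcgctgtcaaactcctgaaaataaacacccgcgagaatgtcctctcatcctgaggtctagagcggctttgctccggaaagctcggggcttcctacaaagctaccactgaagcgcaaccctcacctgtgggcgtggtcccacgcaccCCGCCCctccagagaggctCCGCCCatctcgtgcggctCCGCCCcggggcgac
Windows were at hand for 7 of the 10 members, not for Anxa3, Anxa6 or Anxa13. The Anxa2 window held 1 AP-1 match, 3 GC boxes and 1 TATA box, the Anxa1 window 1 TATA box and 1 TEAD match on the other strand, the Anxa11 window 3 GC boxes and the Anxa5 window none of the 4 motifs. Among 32851 windows of all genes, AP-1 matches were in 6.75%, TATA boxes in 12.4%, GC boxes in 32.7% and TEAD matches in 12.6%. No motif of the 4 was in all 4 windows, and Anxa10, which was not detected, held 2 AP-1 matches and a TATA box. A match is a description of letters and not of binding.

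The same response was then measured in livers with edited Bap1. In sgBap1-CCl4 against sgBap1-Veh the test called Anxa2, Anxa3, Anxa1, Anxa5, Anxa4 and Anxa7 higher and Anxa11 lower, against a background of 57.0% of genes called, 29.0% higher and 28.0% lower. The median log2 fold change was 0.78 over the 9 annexins and 0.04 over all tested genes. Without the liver with adipocyte genes the same 6 and 1 were called.
Anxa2 was at 13.5 and 13.1 CPM in sgBap1-Veh and at 202, 260.0 and 184 CPM in sgBap1-CCl4, a 16.2-fold rise (log2 4.02, SE 0.18, adjusted p = 3.59e-07). Anxa5 was at 66.7 and 65.0 CPM and then at 249.7, 253 and 298 CPM (log2 2.02, SE 0.11, adjusted p = 8.07e-07). Both groups were far apart for each gene.
Anxa1 was at 3.61 and 5.24 CPM in sgBap1-Veh and at 19.9, 33.6 and 17.9 CPM in sgBap1-CCl4 (log2 2.44, SE 0.33, adjusted p = 0.000225), and at log2 2.11 without replicate 2, which holds the value 33.6. Anxa3 was at 6.51 and 5.65 CPM and then at 34.0, 38.4 and 31.7 CPM (log2 2.51, SE 0.17, adjusted p = 2.22e-06). All treated livers were above all vehicle livers, and 72.2% of tested genes had groups that did not overlap here.
Anxa4 rose from 51.7 and 52.2 CPM to 89.7, 83.1 and 94.4 CPM (log2 0.78, SE 0.084, adjusted p = 3.14e-05). Anxa7 was at 111 and 128 CPM and then at 141, 144 and 156 CPM (log2 0.30, SE 0.097, adjusted p = 0.0226). The call of Anxa7 depended on single livers, since its adjusted p was 0.188 without sgBap1-Veh replicate 1, 0.068 without sgBap1-CCl4 replicate 3 and 0.0587 with only the livers compared.
Anxa11 was at 49.2 and 46.4 CPM in sgBap1-Veh and at 35.2, 33.9 and 37.7 CPM in sgBap1-CCl4 (log2 -0.42, SE 0.081, adjusted p = 0.00130), and the log2 value was 0.05 with library size alone. Anxa6 was at 159 and 114 CPM and then at 105, 120 and 99.9 CPM (log2 -0.33, approximate 95% interval -0.67 to 0.02, adjusted p = 0.0966), with 0.16 under library size alone. Without sgBap1-Veh replicate 2, the lower vehicle liver, Anxa6 passed as lower (log2 -0.55, adjusted p = 0.0206).

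**Figure D3:**
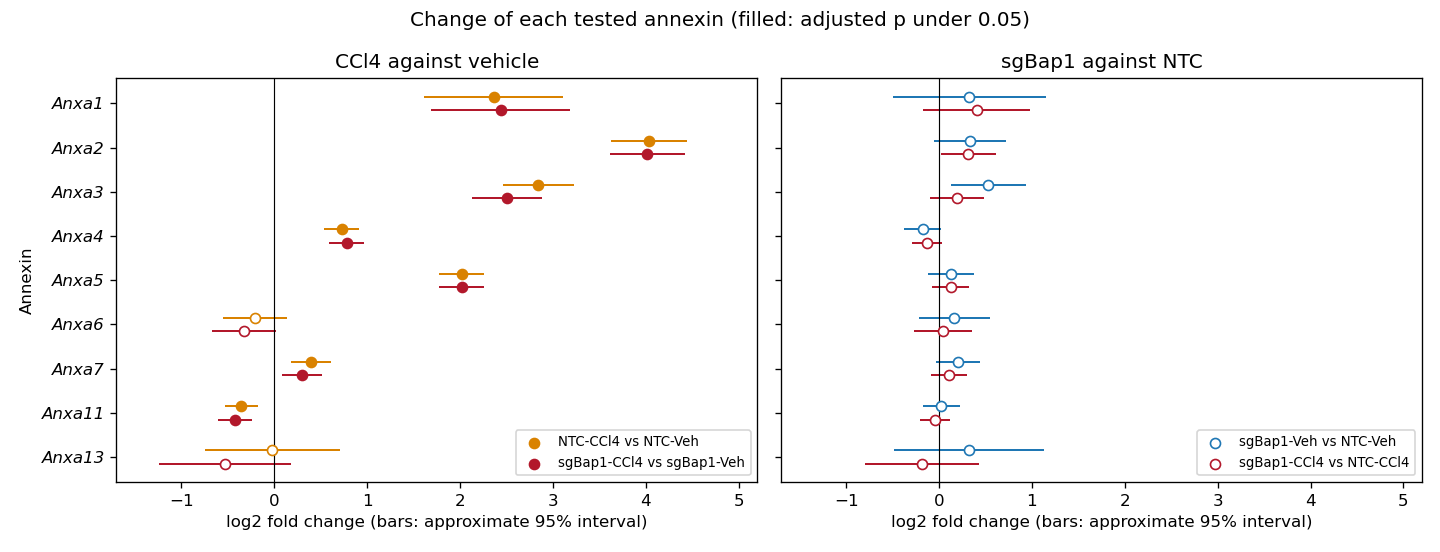
Log2 fold change of the 9 tested annexins with approximate 95% intervals, for CCl4 against vehicle in each genotype (left) and for sgBap1 against NTC in each treatment (right). Filled points passed an adjusted p of 0.05: 7 of 9 in each CCl4 comparison, with Anxa2 near 4.04 and 4.02 at the right end, and none in either genotype comparison, where all points lie between -0.19 and 0.53.

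Editing of Bap1 alone was followed by no called change in the family. In sgBap1-Veh against NTC-Veh, where 0.406% of all tested genes were called, 0 of 9 annexins passed edgeR's quasi-likelihood test and 0 passed DESeq2's Wald test, while 1 had an unadjusted p under 0.05, as 12.3% of tested genes did. That gene was Anxa3, at 6.51 and 5.65 CPM in sgBap1-Veh against 4.96 and 3.49 in NTC-Veh (log2 0.53, SE 0.18, adjusted p = 0.255). The groups did not overlap for Anxa2, Anxa3, Anxa4, Anxa5, Anxa7 and Anxa13, 6 of 9 annexins, beside 40.9% of tested genes. The log2 fold change was above 0 for 8 of 9 annexins, with a median of 0.20 beside 0.02 over all genes, and below 0 for Anxa4 (-0.18, SE 0.090, adjusted p = 0.475).
The precision differed between members. The approximate 95% interval was -0.12 to 0.37 for Anxa5 and -0.18 to 0.22 for Anxa11, and wider, at -0.49 to 1.15, for Anxa1. For Anxa2 it ran from -0.05 to 0.72, so that a fold of up to 1.65 remains within the interval.

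With CCl4, too, no annexin was called between the genotypes. In sgBap1-CCl4 against NTC-CCl4, with 0.329% of all tested genes called, 0 of 9 annexins passed edgeR's test and 0 passed DESeq2's, and 1 had an unadjusted p under 0.05, beside 14.0% of tested genes. This was Anxa2, at 202, 260.0 and 184 CPM against 152, 170 and 197 CPM (log2 0.32, SE 0.13, adjusted p = 0.329). Its value was 0.16 without sgBap1-CCl4 replicate 2, and the groups overlapped at 184 and 197 CPM.
Anxa1 showed the same dependence on that liver, with a log2 value of 0.40 (SE 0.26, adjusted p = 0.515) that was 0.07 without it. Anxa4 was lower in each of the 3 sgBap1-CCl4 livers than in any NTC-CCl4 liver (log2 -0.13, SE 0.073, adjusted p = 0.474), and 20.3% of all tested genes had groups without overlap in this comparison. The intervals were -0.07 to 0.33 for Anxa5 and -0.21 to 0.12 for Anxa11.

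The interaction asks whether the CCl4 response itself differs between the genotypes. No gene of the 17015 passed edgeR's test (0.00% called, 10.4% with an unadjusted p under 0.05), and none of the 9 annexins had an unadjusted p under 0.05. DESeq2's Wald test called 411 genes, with 0 annexins among them. For Anxa2 the difference between the log2 fold changes was -0.02 (SE 0.22, interval -0.51 to 0.47). As a fold, this approximate interval ran from 0.703 to 1.38 times the CCl4 fold in NTC livers. The difference was 0.00 (interval -0.32 to 0.32) for Anxa5 and 0.05 (-0.21 to 0.31) for Anxa4. The furthest from 0 were Anxa13 (-0.51, SE 0.46), with 16 to 34 counts per liver, and Anxa3 (-0.33, SE 0.22, adjusted p = 0.677). The 2 CCl4 comparisons share no livers, while the interaction uses all 10.

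Annexins bind S100 proteins, small calcium-binding proteins, and 4 such partners were listed. All 4 of 4 rose with CCl4 in both genotypes, with medians of 3.35 and 3.58, and kept that under scaling by library size and without sgBap1-CCl4 replicate 2. Over all tested genes 27.4% were called higher in NTC and 29.0% in sgBap1. S100a10, the partner of ANXA2, went from 55.0 and 53.3 CPM in NTC-Veh to 129, 133 and 137 CPM in NTC-CCl4, and with edited Bap1 from 53.2 and 55.0 CPM to 137, 163 and 132 CPM. The change was 1.30 on the log2 scale (SE 0.10, adjusted p = 5.87e-06) in NTC and 1.41 (SE 0.10, adjusted p = 3.58e-06) in sgBap1, below that of Anxa2. The count of Anxa2 per count of S100a10 within a liver went from 0.184 and 0.206 in NTC-Veh to 1.18, 1.28 and 1.44 in NTC-CCl4, and from 0.254 and 0.239 in sgBap1-Veh to 1.48, 1.60 and 1.39 in sgBap1-CCl4.
S100a11, the partner of ANXA1, rose more than Anxa1 did. Its log2 fold change was 3.28 (SE 0.17, adjusted p = 9.88e-07) in NTC and 3.09 (SE 0.17, adjusted p = 9.88e-07) in sgBap1, and the count of Anxa1 per count of S100a11 was 0.411 and 0.600 in NTC-Veh and 0.277, 0.278 and 0.256 in NTC-CCl4, beside 0.385 and 0.592 with vehicle and 0.286, 0.350 and 0.267 with CCl4 in the sgBap1 livers. The ratio was lower after CCl4 here and higher for the pair of Anxa2 and S100a10. S100a4, a gene of motile stromal and immune cells, had log2 fold changes of 4.89 and 4.41, and S100a6 of 3.42 and 4.07. In the genotype comparisons 0 of the 4 partners were called, by edgeR or by DESeq2, with 1 at an unadjusted p under 0.05 in each. Of all tested genes edgeR called 0.406% with vehicle and 0.329% with CCl4, and 12.3% and 14.0% had an unadjusted p under 0.05.

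The listed receptors of ANXA1 were sparse. Of the 3 formyl peptide receptor genes on the list, Fpr3 had 0 counts in every liver, and Fpr1 is described although it was chosen after its values were seen. Fpr2 was at 1.25 and 0.748 CPM in NTC-Veh and 2.45, 2.20 and 3.98 in NTC-CCl4 (log2 1.50, SE 0.38, adjusted p = 0.00652), and at 1.35 and 2.36 in sgBap1-Veh and 2.81, 2.16 and 3.12 in sgBap1-CCl4 (log2 0.57, SE 0.35, adjusted p = 0.189). Fpr1 lay at 2.31 and 1.33 CPM in NTC-Veh and at 2.49, 2.40 and 4.74 CPM in NTC-CCl4, whereas sgBap1 livers had 4.82 and 4.27 CPM with vehicle and 1.72, 3.03 and 2.76 CPM with CCl4. Every NTC-CCl4 liver was above its vehicle group and every sgBap1-CCl4 liver below its own. Groups did not overlap for 71.7% and 72.2% of all tested genes in these comparisons. By edgeR's quasi-likelihood test Fpr1 was not called in NTC (log2 0.80) or in sgBap1 (log2 -0.87, adjusted p = 0.0554). The interaction for Fpr1 was -1.66 (SE 0.52, unadjusted p = 0.00916, adjusted p = 0.264), where 10.4% of tested genes had an unadjusted p under 0.05. The summed macrophage markers lay at 320 to 432 CPM in sgBap1-Veh against 160 to 220 CPM in NTC-Veh, and their part in this was not tested. In NTC the call of Fpr2 was lost without NTC-Veh replicate 2 (log2 1.18, adjusted p = 0.0713), and Fpr1 passed as higher with library size alone (log2 1.28, adjusted p = 0.0156). In sgBap1, Fpr1 passed as lower without sgBap1-CCl4 replicate 2 (log2 -1.03, adjusted p = 0.0461), without NTC-CCl4 replicate 3 and by DESeq2's Wald test, and Fpr2 passed as higher with library size alone (log2 1.04, adjusted p = 0.0178).

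The other membrane repair genes were mixed. Of 21 listed genes 20 were tested, and 9 rose and 3 fell in NTC, with a median of 0.30, and 11 rose and 4 fell in sgBap1, with a median of 0.42. Over all tested genes 27.4% were higher and 26.6% lower in NTC, and 29.0% and 28.0% in sgBap1. With library size alone the counts were 16 higher and 0 lower in each genotype, where calls over all genes were 8500 higher and 2061 lower in NTC and 8614 and 2388 in sgBap1. Without sgBap1-Veh replicate 2 the counts in sgBap1 were 9 higher and 1 lower. Myof, which encodes the ferlin myoferlin, had log2 fold changes of 3.12 (SE 0.28, adjusted p = 1.62e-05) and 2.47 (SE 0.27, adjusted p = 4.61e-05). Ahnak, a giant scaffold that binds the complex of ANXA2 and S100A10, had 2.07 (SE 0.21, adjusted p = 2.99e-05) and 2.18 (SE 0.21, adjusted p = 2.13e-05).
Capn2, a calpain protease, rose by 1.32 and 1.50 on the log2 scale. Cavin1, a caveolar coat gene that adipocytes also express, passed in sgBap1 (log2 1.57, SE 0.50, adjusted p = 0.0269) and not in NTC (log2 1.13, SE 0.49, adjusted p = 0.0864), and was not called in the interaction. In sgBap1 it was 0.94 (adjusted p = 0.0236) without the liver with adipocyte genes, and lost its call without sgBap1-Veh replicate 1 (adjusted p = 0.120) or replicate 2 (adjusted p = 0.117). The genes that fell, and those of the ESCRT machinery that rose, were chosen for mention after their values were seen. Those that fell were Pdcd6, Chmp2a and Smpd1 in both genotypes, and Vps4b in sgBap1, but with library size alone Pdcd6, Chmp2a and Smpd1 were not called, with signs that turned for Chmp2a in NTC (log2 0.04) and for Smpd1 in both (log2 0.10 and 0.22), and Vps4b was called higher in sgBap1 (log2 0.23, adjusted p = 0.0414). In sgBap1 the calls of Pdcd6 (adjusted p = 0.0569), Smpd1 (adjusted p = 0.0703) and Vps4b (adjusted p = 0.133) were lost without sgBap1-Veh replicate 2, and that of Smpd1 also without sgBap1-CCl4 replicate 2 (adjusted p = 0.106) and in 5 other fits that leave out 1 liver. Pdcd6 and the Chmp and Vps4 genes serve that machinery, which seals wounds by budding membrane off, and in it Chmp4b (log2 0.70 and 0.91), Chmp2b and Chmp6 rose. In the genotype comparisons 0 of 20 were called by edgeR and 0 by DESeq2.

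**Figure D4:**
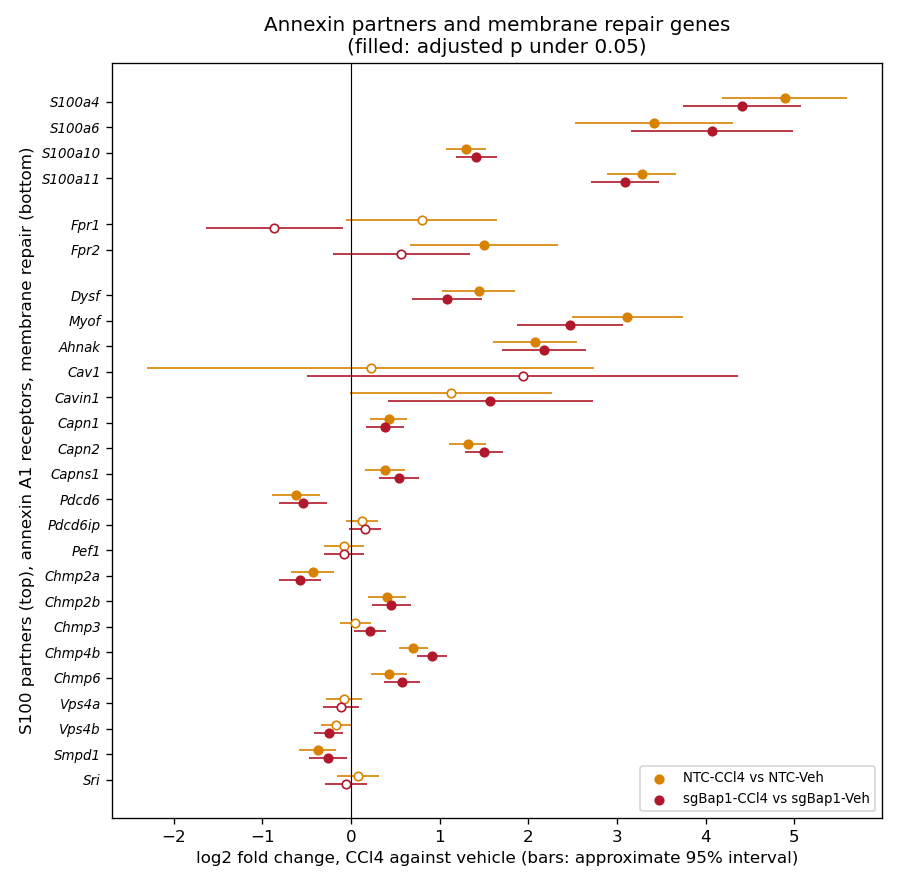
Log2 fold change with CCl4 of 4 S100 partners, 2 annexin A1 receptors and 20 membrane repair genes in NTC and in sgBap1 livers, with approximate 95% intervals and filled points for an adjusted p under 0.05. The S100 genes lie to the right of 0 with S100a4 furthest at 4.89, and Myof and Ahnak lead the repair genes. Fpr1 has opposite signs in the 2 genotypes and was called in neither.

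Markers of several cell types also changed with CCl4, in both directions. The calls below stand beside a high background: with CCl4 27.4% of all tested genes were called higher and 26.6% lower in NTC. In sgBap1 these shares were 29.0% and 28.0%. With CCl4 the summed CPM of 6 macrophage markers was 160 to 220 in NTC-Veh and 649.7 to 834 in NTC-CCl4, with 5 of 6 called higher, and 320 to 432 in sgBap1-Veh and 655 to 857 in sgBap1-CCl4, with 4 of 6 higher and Clec4f lower. Neutrophil markers, of which 4 of 5 were tested and 4 called higher in each genotype, summed to 5.38 to 11.5 CPM in vehicle livers and 25.9 to 36.5 CPM after CCl4. The marker Ly6g had 0 to 9 counts per liver and was not tested. Neutrophils and macrophages are known to express Anxa1, and their part in the annexin changes was not tested.
Cholangiocyte markers summed to 43.2 to 51.4 CPM in vehicle livers, 192 to 248 CPM in NTC-CCl4 and 272 to 370 CPM in sgBap1-CCl4. Most of each sum was Spp1 alone, with means of 41.2 CPM in NTC-Veh, 39.8 in sgBap1-Veh, 199 in NTC-CCl4 and 316 in sgBap1-CCl4. Of the 5 markers, Sox9 and Spp1 were called and Krt19, Krt7 and Epcam, the defining ones, were not. Stellate markers were called higher in 5 of 5 in NTC and 4 of 5 in sgBap1, with sums of 35.9 to 52.4 CPM in vehicle livers and, after CCl4, 211 to 280 CPM in NTC and 180.0 to 596 CPM in sgBap1, the highest in sgBap1-CCl4 replicate 2. Endothelial markers, 3 of 5 called higher in each genotype and Kdr called lower in sgBap1, summed to 115 to 157 in vehicle livers and 166 to 214 after CCl4.
With TMM scaling hepatocyte markers were lower after CCl4, with a median log2 fold change of -0.87 in NTC and -0.57 in sgBap1. In NTC 5 of 6 were called lower, beside 26.6% of all tested genes. In sgBap1 2 of 6 were, which is near the 28.0% of all tested genes. The size of this fall rests on the scaling, since with library size alone the median of all tested genes moved to 0.50 and 0.52. The sums of the hepatocyte markers were 108991 to 154168 CPM in vehicle livers and 63957 to 81943 CPM after CCl4. Alb made up most of each sum, at 104551 CPM on average in NTC-Veh and 61893 CPM in NTC-CCl4. Mesothelial markers had 0 of 4 called by edgeR and 0 at an unadjusted p under 0.05, and acinar markers summed to at most 0.109 CPM. In vehicle livers, where 0 annexins were called between the genotypes, all 6 macrophage markers were higher in sgBap1, with a median log2 fold change of 1.05. All 6 had an unadjusted p under 0.05 by edgeR's test, beside 12.3% of tested genes. The macrophage markers Csf1r (adjusted p = 0.0487) and Ptprc (adjusted p = 0.0418) were called higher in sgBap1 by the same test, beside 0.406% of tested genes called in either direction. Both calls were lost without NTC-Veh replicate 2 (adjusted p = 0.266 and 0.171), without sgBap1-Veh replicate 1 (adjusted p = 0.192 and 0.168), in some other fits that leave out 1 liver and with library size alone (adjusted p = 0.0751 and 0.0510).

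The genes whose pattern over the 10 livers was nearest to that of 2 members were ranked by the root mean square difference of centred log2 CPM, as a description. For Anxa2 they were Cd63 (0.161), a tetraspanin of late endosomes and exosomes, Tes (0.212), a focal adhesion protein, and Tagln (0.221), an actin-binding protein of contractile cells, out of 17014 genes. For Anxa5 they were Acot9 (0.145), Clic1 (0.153) and Tubb5 (0.155). Within the family the closest pair was Anxa6 and Anxa11 (0.181), and Anxa2 was nearest to Anxa3 (0.680).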

How the data were processed

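Bulk RNA-seq of 10 livers was analysed. The authors made stranded mRNA libraries, aligned read pairs of 50 bases to mm10 (GRCm38) with STAR 2.7.6a and quantified genes with Salmon 1.4.0. The deposited values are estimated counts (expected counts) per gene symbol, not normalized, and 8.65% to 9.67% of the values per library were not whole. Counts were rounded, genes kept by filterByExpr, libraries normalised by TMM (factors 0.786 to 0.851 with vehicle and 1.08 to 1.24 with CCl4) and 1 model of the 4 groups fitted with edgeR 4.0.16 in R 4.3.3 (glmQLFit, robust, two-sided tests, threshold 0.05). SE was taken as the log2 fold change over the root of F, and intervals as approximate. CPM is the estimated count scaled to the normalised library, and a prior count of 2 enters log2 CPM. The members and gene lists were chosen with earlier results of these data known. Named genes are all members, Bap1, up to 4 genes per list with the largest called change, and the nearest patterns of Anxa2 and Anxa5. Outside this rule, Fpr1, Fpr3, single cell type markers and the membrane repair genes beyond 4 were named after their values were seen.

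Alternatives were DESeq2 1.42.0 size factors and Wald test, library size alone, no filter, 10 counts or more on average, the replicate block, only the livers compared, each liver left out and, added after the data were seen, the quasi-likelihood method of edgeR 3. The script was tested on simulated data. Positions come from GENCODE vM21 and promoters from RefSeq. The annexins overlap genes on the other strand (Anxa1, Anxa2, Anxa4 and Anxa11), and the strand setting of the counting is not given in the sources used here, so that their reads may not be told apart. Libraries of a group differed by more than sampling noise, with a mean chi-square of 14.5 to 85.9 per gene. An exact permutation test of 3 against 3 livers cannot go below 0.1, and was not used.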

Additional observations from a re-analysis of the deposited data

How the results depend on the processing

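The number of annexins called was the same, or within 1.5 times, under every alternative run, at 6 to 8 in the CCl4 comparisons and 0 elsewhere. The single-gene values were counted apart for fits that leave out 1 liver and for all other settings. Under the other settings, 339 values kept direction and side of the threshold, 3 calls were lost and 11 values turned sign, Anxa11 among them. The lost calls were Anxa7 in sgBap1 with only the livers compared, and Anxa11 in both CCl4 comparisons with library size alone. Without 1 liver, 421 were kept, 3 lost and 1 gained a call and 25 turned sign. With library size alone the median of all genes shifted by 0.50 and 0.52, and Anxa6, Anxa11 and Anxa13 turned to 0.26, 0.12 and 0.45 in NTC, and Anxa6 and Anxa11 to 0.16 and 0.053 in sgBap1. The other reversals were of values near 0: Anxa11 between vehicle groups was -0.00075 with only the livers compared, and in the interaction Anxa5 was -0.0078 with DESeq2 size factors, -0.0036 with the replicate block and -0.0051 with DESeq2's Wald test, Anxa1 was -0.00042 with the block, and Anxa2 was 0.0022 with no filter.

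Without 1 liver the ranges were, for CCl4 in NTC, -0.39 to 0.010 for Anxa6 and -0.11 to 0.11 for Anxa13, for sgBap1-Veh against NTC-Veh, -0.11 to 0.38 for Anxa6 and -0.025 to 0.064 for Anxa11, and for sgBap1-CCl4 against NTC-CCl4, -0.038 to 0.088 for Anxa6 and -0.39 to 0.0023 for Anxa13. In the interaction they were -0.33 to 0.40 for Anxa1, -0.18 to 0.082 for Anxa2, -0.0020 to 0.10 for Anxa4, -0.10 to 0.046 for Anxa5, -0.34 to 0.15 for Anxa6 and -0.19 to 0.011 for Anxa7. A fit without a vehicle liver leaves 1 in that group, assumed to vary like the others.

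Calls over all genes moved more. Between vehicle groups they were 69, and 32 with library size alone, 1 with the replicate block, 548 with DESeq2's Wald test, 27 with only the livers compared and 0 to 150 without 1 liver. Between CCl4 groups they were 56, and 94 with no filter, 24 with the block, 480 with DESeq2's Wald test, 28 with only the livers compared and 1 to 71 without 1 liver, and library size alone gave 31 higher and 31 lower in place of 34 and 22. In the interaction they were 0, and 2 with library size alone, 34 with no filter, 411 with DESeq2's Wald test and 0 to 7 without 1 liver. The cause was not tested. Deviations of livers with the same replicate number correlated at -0.149 to 0.102. Livers with different numbers were not compared in this way, so these values cannot show whether the numbers pair the livers. The fit with only the livers compared was not run for the interaction.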

Other observations

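Anxa8 and Anxa9, outside the 10 members, were also in the table. Anxa9 went from 1.36 and 1.03 CPM in NTC-Veh to 2.64, 2.48 and 2.50 CPM in NTC-CCl4, and with edited Bap1 from 1.32 and 1.50 CPM to 1.91, 2.40 and 2.53 CPM, and was called higher with CCl4 in NTC (log2 1.09, SE 0.22, adjusted p = 0.00176) and in sgBap1 (log2 0.70, SE 0.22, adjusted p = 0.0185) by edgeR's quasi-likelihood test. Without sgBap1-Veh replicate 1 the call in sgBap1 was lost. Anxa8 had 1 to 118 counts per liver, with 1 and 74 in the 2 NTC-Veh livers, and was not called in any comparison.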
